A study of Mus musculus with 8 samples.

Results

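Mitosis genes were examined across the blood progenitors of mouse bone marrow. The set holds 39 genes of mitosis and the G2/M transition, chosen by name from the 32285 genes of a single-nucleus RNA table, and all 39 were found in it. The study sorted lineage-negative, Sca1+, ckit+ marrow cells, a fraction that contains hematopoietic stem cells (HSC) and early progenitors. The cells came from mice with the T58A point mutation of MYC, and from WT littermates without it. Each genotype has 2 RNA samples from isolated nuclei, and each sample pools 2 mice. The table is named for T58A alone and no label used here ties a nucleus to a genotype, so T58A and WT were not compared, and the table was read as 1 sample with no replicates and no p-values.

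The mitosis genes are a program that dividing cells switch on ahead of mitosis and shut off again when division is complete. Some members, such as Neil3, act already at DNA replication. The products of the mitosis genes compact and untangle chromosomes, build the spindle from microtubules, and attach chromosomes to it through kinetochores. They also hold the cell until attachment is complete, and finally cut the cell into daughters. In marrow most HSC are known to be quiescent, whereas committed progenitors divide often, so levels of these genes in a class of cells reflect both how many cells are in the program and how strongly each expresses it.

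The table held unique molecular identifier (UMI) counts for 8708 nuclei in 4 barcode sets, with a median of 4147.5 UMIs per nucleus and a range from 1001 to 24786. The sets differed in median depth, which ran from 3035 to 6764 UMIs, and in the mitochondrially encoded share of UMIs, which ran from 9.22% to 24.6%. Of the barcode sequences, 36 occurred in more than 1 set. To remove differences in depth, each nucleus was thinned at random to 2000 UMIs, which kept 7548 nuclei, so that a level of 500 CPM (UMIs scaled to a total of 1000000) corresponds to 1 UMI per nucleus. A nucleus was then gated into a class when it held at least 3 UMIs from at least 2 marker genes of that class and of no other class. The gates took 450 nuclei as erythroid, 91 as megakaryocyte, 793 as myeloid, 463 as lymphoid and 1770 as HSC, while 2954 nuclei passed no gate and 578 passed several. Own markers had medians of 12, 4, 8, 6 and 6 UMIs per nucleus in these 5 classes, and the markers of the other 4 classes had medians of 0, except that HSC markers had a median of 1 UMI in megakaryocyte-gated nuclei. Of the megakaryocyte-gated nuclei 37.4% lay exactly at the gate's minimum of 3 UMIs, against 4.67% to 17.3% in the other classes. The megakaryocyte gate rested on Itga2b, Vwf, Rab27b and Pf4, while Gp1bb and Gp6 had no count in any of the 5 classes and Gp1ba and Ppbp were near 0.

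Promoters of late cell cycle genes are known for a short element, TTTGAA, the core of the cell cycle genes homology region, which often lies near the start of transcription and is often accompanied by CCAAT boxes. Of the 39 members, 33 matched an entry among the RefSeq promoters of GRCm38.p6, each a window of 300 bases from 250 before to 50 after the gene's start. TTTGAA, searched on both strands, was present in 26 of these 33 windows (78.8%), and in 18.1% of all 27025 promoter windows. At least 1 CCAAT on either strand was present in 69.7% of the member windows and in 37.9% of all windows, and 2 or more in 48.5% and in 12.2%. Both letter strings occurred together in 60.6% of the member windows, against 7.12% of all windows. In 25 of the 26 the TTTGAA nearest to the start lay within 100 bases of it. TTTAAA, a variant that shares no match with TTTGAA, was in 27.3% of the member windows and in 13.2% of all windows. The 150 bases before the start are shown for the 4 genes whose levels followed the other members most closely over nuclei (Top2a, Mki67, Kif11, Kif15), for 3 sparsely counted regulators (Cdk1, Cdc20, Ube2c), and for Neil3, whose window holds neither string. Each is printed 5′ to 3′ on the gene's strand, with TTTGAA or its reverse complement TTCAAA, and CCAAT or its reverse complement ATTGG, in capitals. A match describes letters in the window and is not evidence of a bound factor.
Top2a, minus strand, chr11:99024190-99024339: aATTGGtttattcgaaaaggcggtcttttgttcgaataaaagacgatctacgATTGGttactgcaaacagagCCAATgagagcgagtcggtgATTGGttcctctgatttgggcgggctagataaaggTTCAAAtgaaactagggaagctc
Mki67, minus strand, chr7:135716380-135716529: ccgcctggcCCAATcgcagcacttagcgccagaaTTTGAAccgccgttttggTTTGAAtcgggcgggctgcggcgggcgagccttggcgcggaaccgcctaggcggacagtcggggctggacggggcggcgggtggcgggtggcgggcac
Kif11, plus strand, chr19:37376232-37376381: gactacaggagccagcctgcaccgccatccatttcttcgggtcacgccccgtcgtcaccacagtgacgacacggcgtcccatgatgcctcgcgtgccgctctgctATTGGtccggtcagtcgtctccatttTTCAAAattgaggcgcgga
Kif15, plus strand, chr9:122950931-122951080: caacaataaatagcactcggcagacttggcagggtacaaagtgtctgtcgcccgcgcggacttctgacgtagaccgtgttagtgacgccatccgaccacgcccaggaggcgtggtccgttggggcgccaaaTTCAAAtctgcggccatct
Cdk1, minus strand, chr10:69352913-69353062: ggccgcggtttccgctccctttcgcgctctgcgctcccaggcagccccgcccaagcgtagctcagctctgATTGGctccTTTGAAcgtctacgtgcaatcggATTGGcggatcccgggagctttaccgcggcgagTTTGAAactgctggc
Cdc20, minus strand, chr4:118437344-118437493: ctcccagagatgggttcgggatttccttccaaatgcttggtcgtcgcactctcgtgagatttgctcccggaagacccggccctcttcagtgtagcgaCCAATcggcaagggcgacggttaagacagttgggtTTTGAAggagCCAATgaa
Ube2c, plus strand, chr2:164769779-164769928: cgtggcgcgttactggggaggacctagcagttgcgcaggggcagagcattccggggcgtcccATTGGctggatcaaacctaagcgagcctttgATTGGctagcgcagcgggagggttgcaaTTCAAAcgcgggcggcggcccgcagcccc
Neil3, minus strand, chr8:53639066-53639215: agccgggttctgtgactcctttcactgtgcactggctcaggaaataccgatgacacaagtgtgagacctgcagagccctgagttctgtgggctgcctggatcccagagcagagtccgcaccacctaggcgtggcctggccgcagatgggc

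The first comparison asked how many members a nucleus of each class expressed at matched depth. The median nucleus had UMIs of 8 of the 39 members in the erythroid-gated class, 5 in the megakaryocyte-gated, 6 in the myeloid-gated, 3 in the lymphoid-gated and 2 in the HSC-gated class. The shapes of the distributions differed as well. Erythroid-gated nuclei formed a single broad peak near the median and only 1.33% of them had no member, myeloid-gated nuclei were spread evenly over low and middle values, and lymphoid-gated and HSC-gated nuclei had a peak at 1 and 2 members with a long tail that reached 23 and 25 members. Summed over the module, a nucleus held 11.1 member UMIs in the erythroid-gated class, 11.1 in the megakaryocyte-gated, 9.49 in the myeloid-gated, 8.98 in the lymphoid-gated and 5.57 in the HSC-gated class.

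**Figure D1:**
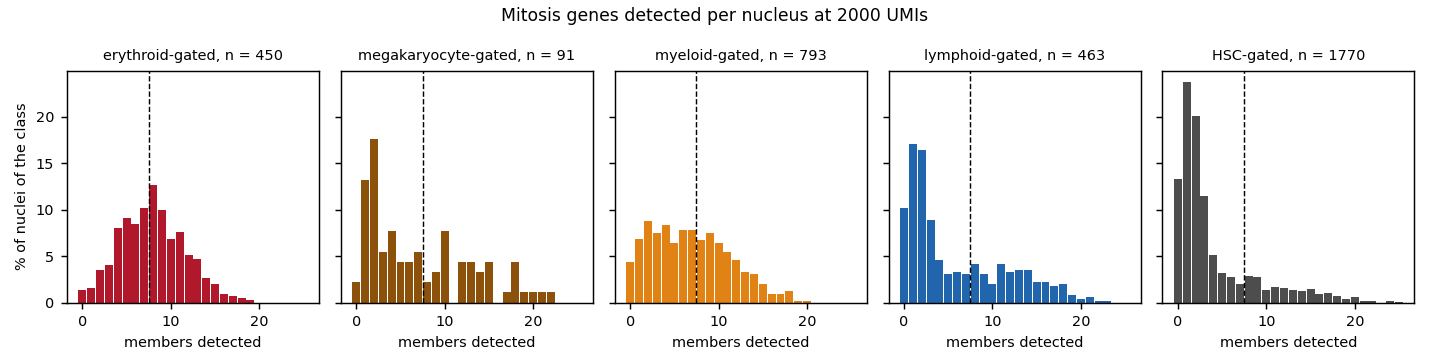
Share of nuclei (y axis, % of the class) by the number of the 39 mitosis genes with at least 1 UMI (x axis), with every nucleus thinned to 2000 UMIs, in the erythroid-, megakaryocyte-, myeloid-, lymphoid- and HSC-gated classes. The dashed line marks the limit of 8 genes; 53.8% of erythroid-gated nuclei lie to its right, against 18.2% of HSC-gated nuclei.

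Nuclei with at least 8 members detected are called mitosis-rich here. They made up 53.8% of erythroid-gated nuclei (95% exact binomial interval 49% to 58.5%, counting error only), 39.6% of megakaryocyte-gated (29.5% to 50.4%), 42.1% of myeloid-gated (38.7% to 45.6%), 33.7% of lymphoid-gated (29.4% to 38.2%) and 18.2% of HSC-gated nuclei (16.4% to 20.1%). The intervals of all 4 progenitor classes lay above that of the HSC-gated class, while those of the megakaryocyte-gated class overlapped the intervals of the other 3. The order among progenitor classes depended on the limit: with at least 12 members the shares were 16.7% in erythroid-gated, 26.4% in megakaryocyte-gated, 16.1% in myeloid-gated, 20.5% in lymphoid-gated and 9.66% in HSC-gated nuclei. In barcode sets 1 to 4, mitosis-rich nuclei were 57.3%, 80.0%, 45.1% and 67.1% of the erythroid-gated class, with only 10 such nuclei in set 2. They were 43.8%, 37.6%, 28.8% and 53.6% of the myeloid-gated class. In the lymphoid-gated class they were 39.3%, 24.4%, 38.6% and 30.9%. In the HSC-gated class they were 20.4%, 15.3%, 15.1% and 20%. Every set therefore placed the erythroid-, myeloid- and lymphoid-gated classes above the HSC-gated class, but the order of the myeloid- and lymphoid-gated classes turned round in set 3. Without thinning the shares were 91.8% (erythroid-gated), 60.4% (megakaryocyte-gated), 73.1% (myeloid-gated), 45.4% (lymphoid-gated) and 30.2% (HSC-gated).

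Plasma cells are known as non-dividing cells, and their gate was used to gauge background from free RNA in the droplets. The 264 nuclei gated as plasma on Jchain, Igha, Xbp1, Mzb1, Igkc and Derl3 were 12.5% mitosis-rich (8.76% to 17.1%), with a median depth of 3120.5 UMIs before thinning. The median depths of the erythroid-, megakaryocyte-, myeloid-, lymphoid- and HSC-gated classes were 8672, 5113, 6282, 5047 and 4247.5 UMIs. Top2a had a UMI in 31.1% of plasma-gated nuclei, against 66.9% of erythroid-gated and 33.3% of HSC-gated nuclei over all sets. Of the plasma-gated nuclei 106 were in set 1 and 151 in set 3, and their mitosis-rich shares there were 16.0% and 7.95%, against 20.4% and 15.1% of HSC-gated nuclei. Set 4 held 6 plasma-gated nuclei, 66.7% of them mitosis-rich, and up to 20 members were detected in a single plasma-gated nucleus, so the gate is an imperfect measure of background. Whether the nuclei in the plasma gate are plasma cells was not tested beyond these markers.

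Thinning did not remove every relation with depth. Mitosis-rich nuclei had been deeper before thinning than the other nuclei of their own class in all 5 classes, with medians of 9567 against 7624.5 UMIs in the erythroid-gated class, 7901 against 5427 in the myeloid-gated, 6211 against 4363 in the lymphoid-gated and 6838.5 against 3846.5 in the HSC-gated class. Among nuclei that began with 2000 to 4000 UMIs, 28.9% of the erythroid-gated, 25% of the megakaryocyte-gated, 21.2% of the myeloid-gated, 19.0% of the lymphoid-gated and 5.14% of the HSC-gated nuclei were mitosis-rich. Among those with over 8000 UMIs the shares were 62.2%, 55.0%, 60.5%, 57.8% and 41.3% in the same order of classes. Each progenitor class stayed above the HSC-gated class in all 3 bins of depth, and the ratio of summed levels was largest in the shallowest bin. The summed member UMIs of erythroid-gated over HSC-gated nuclei were 3.11-fold (2.76 to 3.48) in the shallowest bin, 1.46-fold (1.38 to 1.55) from 4000 to 8000 UMIs and 1.20-fold (1.14 to 1.27) in the deepest bin. For the myeloid-gated class the same ratios were 1.93, 1.29 and 1.24, for the lymphoid-gated class 2.01, 1.31 and 1.44, and for the megakaryocyte-gated class 2.31, 1.92 and 1.41. The part of depth in the class differences was not tested further. The mitochondrial share of UMIs also differed between classes, with medians of 29.8% in the erythroid-gated, 16.8% in the megakaryocyte-gated, 18.1% in the myeloid-gated, 12.2% in the lymphoid-gated and 13.3% in the HSC-gated class. Thinning the non-mitochondrial UMIs alone, to the same 2000, gave mitosis-rich shares of 76.5% in the erythroid-gated, 55.0% in the myeloid-gated and 23.3% in the HSC-gated class.

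**Figure D2:**
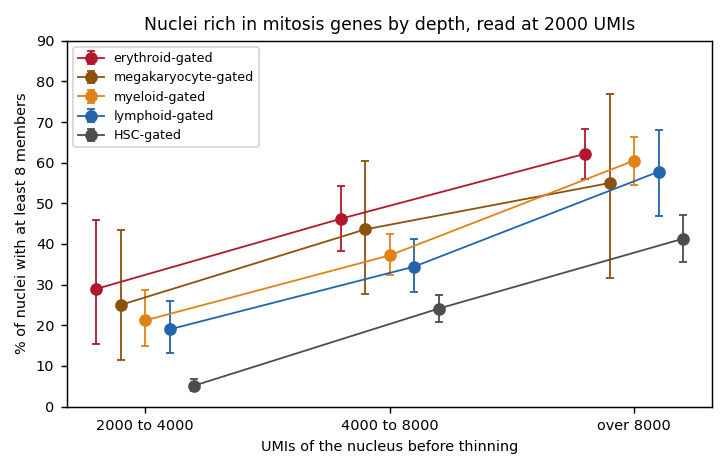
Share of mitosis-rich nuclei (y axis, % with at least 8 members at 2000 UMIs) by the UMIs a nucleus had before thinning (x axis, 3 bins), for the 5 classes, with 95% exact binomial intervals as bars. The HSC-gated class is lowest in every bin, at 5.14%, 24.1% and 41.3%, and all classes climb with depth.

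The second comparison asked which members separated a progenitor class from HSC-gated nuclei. A member was called higher or lower when its summed level (CPM plus 10) differed by at least 1.5-fold and in the same direction in every barcode set with at least 10 nuclei of both classes. Genes with at least 50 thinned UMIs over both classes were measured, and all 4 comparisons share the same HSC-gated nuclei. In erythroid-gated nuclei 22 of 36 measured members were called higher, where 7.8% of the 8158 genes measured were, and 2 were called lower, where 26.6% of genes were. Kif14, Cenpf, Ccna2, Ccnb2 and Cdca8 missed the call there through set 2 alone, where 10 erythroid-gated nuclei held 0 UMIs of each. In megakaryocyte-gated nuclei 24 of 33 members were called higher, against 6.52% of 7715 genes, over 3 usable sets. In myeloid-gated nuclei 21 of 37 were called higher, against 5.05% of 8575 genes. In lymphoid-gated nuclei 17 of 34 were called higher, against 4.7% of 8240 genes. No member was called lower in these 3 classes, where 17.7%, 15.8% and 9.61% of all measured genes were. The median log2 ratio of the measured members was 0.93 in erythroid-gated, 1.06 in megakaryocyte-gated, 0.67 in myeloid-gated and 0.63 in lymphoid-gated nuclei, beside medians over all measured genes of -0.22, -0.11, -0.13 and -0.03. Single calls were less stable than these medians: of the members called higher, 16 (erythroid-gated), 12 (megakaryocyte-gated), 12 (myeloid-gated) and 8 (lymphoid-gated) were called again in at least 12 of 14 alternative settings, while 33, 29, 37 and 32 of the 39 members had a ratio above 0 in all 14. Some of these settings could not lose a call: a lower or no minimum count, and 1 CPM added in place of 10, kept all 86 calls. Another thinning seed kept 55 of the 86, and 4000 UMIs per nucleus kept 29. In megakaryocyte-gated nuclei 13 members were called higher with another thinning seed or with a gate of 5 UMIs, and at 4000 UMIs per nucleus 9, 4 and 5 members were called higher in the erythroid-, myeloid- and lymphoid-gated classes.

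**Figure D3:**
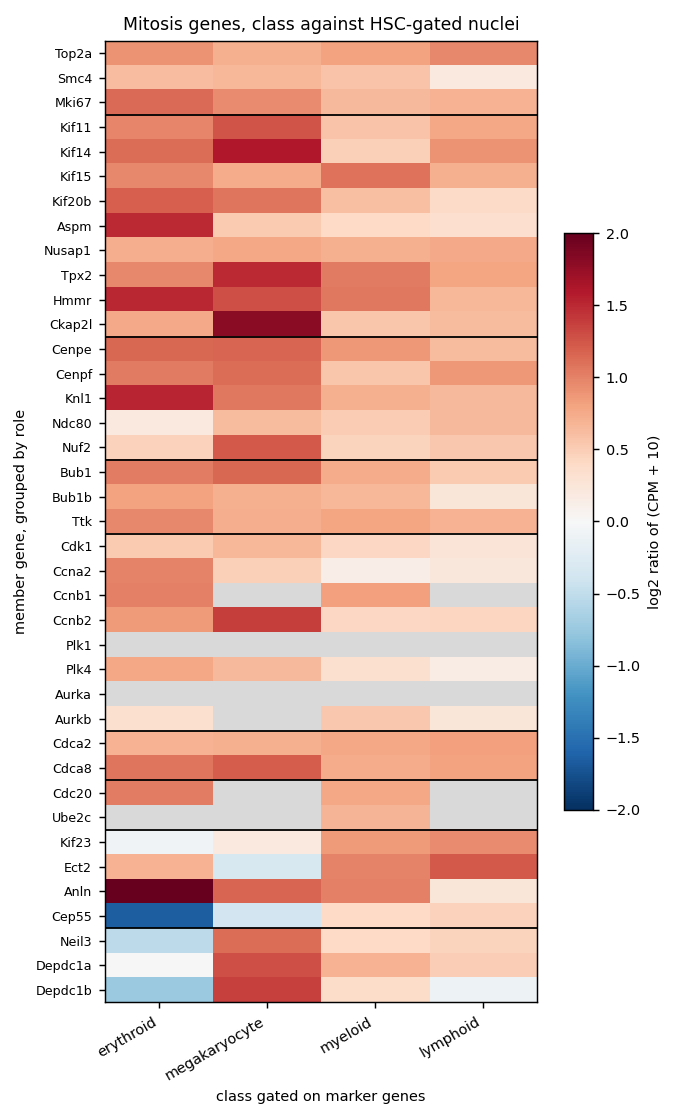
Log2 ratio of CPM plus 10 in each class over HSC-gated nuclei (colour) for the 39 members, grouped by role with black lines; grey cells had fewer than 50 UMIs over both classes. Most cells are red (higher than in HSC-gated nuclei), and the blue cells are few, led by Cep55 at -1.65 and Depdc1b at -0.74 in the erythroid-gated class.

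Among the chromosome structure genes, Top2a, the topoisomerase that untangles replicated DNA, was the most abundant member overall with 3360 thinned UMIs over the 5 classes. Its level was 623 CPM in erythroid-gated, 549 in megakaryocyte-gated, 586 in myeloid-gated, 649 in lymphoid-gated and 330 CPM in HSC-gated nuclei. By set it was 677, 950, 519 and 757 CPM in erythroid-gated nuclei and 737, 551, 659 and 617 CPM in lymphoid-gated nuclei, against 407, 402, 216 and 346 CPM in HSC-gated nuclei. Over sets, the erythroid- and lymphoid-gated ranges did not overlap the HSC-gated range, and the log2 ratios were 0.90 and 0.95. Mki67, whose product coats mitotic chromosomes and gives the Ki-67 marker of proliferation, was highest in erythroid-gated nuclei at 548 CPM, followed by 478 CPM in megakaryocyte-gated, 402 in lymphoid-gated, 389 in myeloid-gated and 243 CPM in HSC-gated nuclei. Smc4, a core subunit of the condensin complex that compacts chromosomes, separated the classes least of the abundant members. It stood at 538 CPM in erythroid-gated, 555 in megakaryocyte-gated, 518 in myeloid-gated and 397 in lymphoid-gated nuclei, against 346 CPM in HSC-gated nuclei. Over all HSC-gated nuclei it was the most abundant member. Top2a had more UMIs there in sets 1 (355 against 340) and 2 (152 against 127), and in nuclei of 4000 UMIs or more.

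The 9 spindle motors and microtubule proteins stood above HSC-gated nuclei as a group. In erythroid-gated nuclei 8 of 9 were called higher, and likewise 8 in megakaryocyte-gated, 5 in myeloid-gated and 6 in lymphoid-gated nuclei. Of all measured genes, 7.8%, 6.52%, 5.05% and 4.7% were called higher in the same order of classes. All 9 ratios were above 0 in every class. Kif11, the motor that pushes spindle poles apart, had 270 CPM in erythroid-gated, 330 in megakaryocyte-gated, 202 in myeloid-gated and 233 in lymphoid-gated nuclei, against 133 CPM in HSC-gated nuclei. Kif15, a motor that can share this task with Kif11, was highest in myeloid-gated nuclei (273 CPM against 123 CPM in HSC-gated nuclei, log2 ratio 1.08). Hmmr and Aspm, which act at microtubules and spindle poles, were both highest in erythroid-gated nuclei. Hmmr had 137 CPM in erythroid-gated and 115 CPM in megakaryocyte-gated nuclei, against 41.5 CPM in HSC-gated nuclei. Aspm had 183 CPM in erythroid-gated nuclei, while the megakaryocyte-, myeloid- and lymphoid-gated levels of 87.9, 80.1 and 76.7 CPM were nearer to the 58.5 CPM of HSC-gated nuclei. In megakaryocyte-gated nuclei the leading members were Ckap2l (110 CPM against 24.3 CPM in HSC-gated nuclei, log2 ratio 1.81), Kif14 (115 against 31.4 CPM, 1.60) and Tpx2 (148 against 46.3 CPM, 1.49), which activates Aurora kinase A on the spindle. These rest on 20, 21 and 27 thinned UMIs, and the intervals of the CPM ratios ran from 2.63 to 7.42, from 2.19 to 5.90 and from 2.05 to 4.83.

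Among the 5 kinetochore genes, 2 were called higher in erythroid-gated, 4 in megakaryocyte-gated, 2 in myeloid-gated and 4 in lymphoid-gated nuclei. The shares of all measured genes called higher were 7.8%, 6.52%, 5.05% and 4.7%. The lymphoid-gated calls of Cenpe, Cenpf, Knl1 and Ndc80 were made again in 9, 13, 10 and 9 of 14 alternative settings. Knl1, the scaffold that links microtubules to the checkpoint, had 399 CPM in erythroid-gated nuclei (439, 750, 301 and 543 CPM in sets 1 to 4), against 132 CPM in HSC-gated nuclei (140, 103, 106 and 154 CPM). The 2 ranges did not overlap, and the log2 ratio was 1.53. In megakaryocyte-, myeloid- and lymphoid-gated nuclei Knl1 had 286, 221 and 213 CPM. Cenpe, a motor at the kinetochore, had 283 CPM in erythroid-gated, 286 in megakaryocyte-gated, 231 in myeloid-gated and 194 in lymphoid-gated nuclei, against 122 CPM in HSC-gated nuclei, and was called higher in each class. Cenpf, another kinetochore protein, reached 196, 209, 137 and 173 CPM in the same 4 classes, against 90.4 CPM in HSC-gated nuclei. It was called in the lymphoid-gated class alone. Its CPM ratio was 2.16 (1.79 to 2.61) in erythroid-gated nuclei, but set 2, with 10 nuclei and 0 UMIs, went the other way. In megakaryocyte-gated nuclei the ratio was 2.31 (1.60 to 3.24), but set 4, with 4 UMIs, went the other way. Ndc80, the microtubule-binding arm, was the exception among erythroid-gated nuclei at 54.4 CPM, against 46.0 CPM in HSC-gated nuclei (log2 ratio 0.20). Its partner Nuf2 had 34.4 CPM there, against 22.3 CPM. The 3 spindle checkpoint genes Bub1, Bub1b and Ttk had ratios of 0.81 to 1.02 in erythroid-gated, 0.72 to 1.15 in megakaryocyte-gated, 0.67 to 0.79 in myeloid-gated and 0.24 to 0.70 in lymphoid-gated nuclei, the lowest being Bub1b at 48.6 CPM in lymphoid-gated and 39.5 CPM in HSC-gated nuclei.

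The kinases and cyclins that drive mitosis were sparse in these nuclei. Over the 5 classes Plk1 had 58 thinned UMIs, Aurka 74, Aurkb 114, Ccnb1 116, Ccnb2 133, Ccna2 155, Cdk1 271 and Plk4 363, compared with the 3360 of Top2a, though gene length was not taken into account. Cdk1, the kinase that starts mitosis, had 48.9 CPM in erythroid-gated, 54.9 in megakaryocyte-gated, 44.8 in myeloid-gated and 38.9 in lymphoid-gated nuclei, against 31.1 CPM in HSC-gated nuclei, and it was called in no class. Its partner Ccnb1 was called higher in erythroid-gated nuclei (28.9 CPM from 26 UMIs) and in myeloid-gated nuclei (24.0 CPM from 38 UMIs), against 9.32 CPM from 33 UMIs in HSC-gated nuclei. Ccnb2 was called in megakaryocyte-gated nuclei, at 49.5 CPM from 9 UMIs against 12.7 CPM. Ccna2, an earlier cyclin, had 43.3 CPM in erythroid-gated nuclei, against 19.5 CPM in myeloid-gated and 16.9 CPM in HSC-gated nuclei. Plk4, which controls centriole duplication, was called higher in erythroid-gated (78.9 CPM) and megakaryocyte-gated nuclei (71.4 CPM), while the 47.5 CPM of lymphoid-gated nuclei was close to the 41.8 CPM of HSC-gated nuclei. Plk1 and Aurka, which build and mature spindle poles, were too rare to be measured in any class, with 14.4 and 12.2 CPM in erythroid-gated nuclei, against 3.67 and 8.76 CPM in HSC-gated nuclei.

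Cdca2 and Cdca8 had log2 ratios between 0.70 and 1.21 in the 4 classes. Cdca8 is a subunit of the chromosomal passenger complex, and Cdca2 recruits a phosphatase to chromosomes. Cdc20 and Ube2c, which act with the anaphase-promoting complex to end mitosis, had 109 and 82 UMIs in all. Cdc20 reached 28.9 CPM in erythroid-gated and 22.7 CPM in myeloid-gated nuclei, against 9.04 CPM in HSC-gated nuclei, and was called in both. It had a single UMI in the 91 megakaryocyte-gated nuclei. Ube2c was measured and called in the myeloid-gated class alone, at 17.7 CPM against 7.34 CPM, and its 11.4 CPM in plasma-gated nuclei lay between these values.

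The 4 cytokinesis genes differed in which class stood highest. Anln, the anillin scaffold of the contractile ring, had its highest level in erythroid-gated nuclei at 332 CPM, followed by 181 CPM in megakaryocyte-gated, 163 in myeloid-gated, 91.8 in lymphoid-gated and 75.7 CPM in HSC-gated nuclei. By set it was 345, 550, 284 and 414 CPM in erythroid-gated nuclei, against 73.4, 58.2, 68.5 and 88.1 CPM in HSC-gated nuclei. The 2 ranges were far apart, and the ratio of 4.39 (3.71 to 5.19) was the largest of any member in that class. Ect2, the exchange factor that activates RhoA at the cell equator, was highest in lymphoid-gated nuclei at 163 CPM (137, 154, 216 and 160 CPM by set), against 64.1 CPM in HSC-gated nuclei (63.1, 45, 41.7 and 88.1 CPM). Every set was higher, and the log2 ratio of 1.22 led that class. Myeloid-gated and erythroid-gated nuclei had 137 and 110 CPM of Ect2, but megakaryocyte-gated nuclei had 49.5 CPM from 9 UMIs. Kif23, the motor of centralspindlin, which positions Ect2, had 98.9 CPM in erythroid-gated and 121 CPM in megakaryocyte-gated nuclei, close to the 105 CPM of HSC-gated nuclei, while myeloid-gated and lymphoid-gated nuclei had 197 and 211 CPM and were called higher.

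Cep55, the midbody protein that brings in the machinery for the final cut between daughter cells, was called lower in erythroid-gated nuclei and had the lowest ratio of all members there. It had 5 thinned UMIs in 450 erythroid-gated nuclei, or 5.56 CPM, with 6.10, 0, 7.28 and 0 CPM in sets 1 to 4. Lymphoid- and myeloid-gated nuclei had 57.2 and 54.2 CPM, megakaryocyte-gated nuclei had 27.5 CPM from 5 UMIs, and HSC-gated nuclei had 38.7 CPM from 137 UMIs, with 48.2, 18.5, 31.7 and 43.7 CPM in sets 1 to 4. Erythroid-gated values lay below HSC-gated values in all 4 sets, and the CPM ratio was 0.144 (0.046 to 0.343). Set 2 held only 10 erythroid-gated nuclei, so its 0 CPM carries little weight. The counts before thinning gave 7.22 CPM from 31 UMIs in erythroid-gated nuclei, against 45.2 CPM from 430 UMIs in HSC-gated nuclei. A UMI of Cep55 was seen in 1.11% of erythroid-gated nuclei, below the 3.03% of plasma-gated nuclei. As the plasma gate is an imperfect measure of background, whether the erythroid-gated level is background was not tested. The log2 ratio stayed between -2.60 and -1.02 in all 14 alternative settings, and Cep55 was called lower in each.

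The remaining members are Neil3, Depdc1a and Depdc1b. Neil3, a DNA glycosylase that resolves crosslinks between strands at replication, had 62.2 CPM in erythroid-gated nuclei and 214 CPM in megakaryocyte-gated nuclei, against 93.5 CPM in HSC-gated nuclei. Depdc1b had 26.7 CPM in erythroid-gated nuclei, where it was called lower, and 148 CPM in megakaryocyte-gated nuclei, against 51.4 CPM in HSC-gated nuclei. Depdc1a had 27.8 CPM in erythroid-gated and 82.4 CPM in megakaryocyte-gated nuclei, against 27.7 CPM in HSC-gated nuclei. All 3 were thus at or below the HSC-gated level in erythroid-gated nuclei and above it in megakaryocyte-gated nuclei, where set 2, with 8 nuclei, gave Depdc1b its highest level of 562 CPM and set 4 gave only 20 CPM. The Depdc1b level of erythroid-gated nuclei lay below the 36.0 CPM of plasma-gated nuclei.

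Ranked by the ratio of the highest to the lowest class level (CPM plus 10), the members that separated the 5 classes most were Cep55 (4.32, lymphoid-gated over erythroid-gated), Depdc1b (4.32, megakaryocyte-gated over erythroid-gated), Anln (3.99, erythroid-gated over HSC-gated), Ckap2l (3.50) and Neil3 (3.11). The members that separated them least were Aurka (1.41), Ndc80 (1.57), Cdk1 (1.58), Smc4 (1.59) and Ube2c (1.59). Aurka and Ube2c carry few UMIs, and the added 10 CPM narrows their ratios, whereas Smc4 is abundant.

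To describe the make-up of the module apart from its total, each member was expressed as a share of the UMIs of all 39 members. Of the 39 shares, 18 were between 0.8 and 1.25 times the HSC-gated share in erythroid-gated nuclei, 24 in megakaryocyte-gated, 25 in myeloid-gated and 28 in lymphoid-gated nuclei. Erythroid-gated nuclei departed most. Anln took 5.98% of their member UMIs (5.34% to 6.67%), against 2.72% (2.41% to 3.06%) in HSC-gated nuclei, and Cep55 took 0.10% (0.0325% to 0.233%), against 1.39% (1.17% to 1.64%). Intervals also lay above 1 for the shares of Mki67, Kif20b, Aspm, Hmmr and Knl1, and below 1 for Smc4, Ndc80, Kif23, Neil3, Depdc1a and Depdc1b. Knl1 took 7.18% in erythroid-gated and 4.73% in HSC-gated nuclei, Kif23 1.78% and 3.76%, and Neil3 1.12% and 3.36%.

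The other classes showed fewer departures. In lymphoid-gated nuclei Ect2 took 3.63% and Top2a 14.5%, against 2.30% and 11.9% in HSC-gated nuclei, and Kif23 was above and Smc4, Kif20b, Plk4, Anln and Depdc1b were below the HSC-gated share. In megakaryocyte-gated nuclei Kif14, Tpx2 and Ckap2l were above it, and Smc4, Kif23, Ect2 and Cep55 below it, with Ect2 at 0.889% (0.407% to 1.68%) and Cep55 at 0.494% (0.161% to 1.15%). In myeloid-gated nuclei Kif15, Tpx2, Hmmr, Ect2 and Anln were above it, and Smc4 and Neil3 below. Smc4 took a smaller share in each progenitor class than in HSC-gated nuclei, at 9.68%, 9.98%, 10.9% and 8.85% in the erythroid-, megakaryocyte-, myeloid- and lymphoid-gated classes, against 12.4%. This contrast moved with depth: in nuclei that began with over 8000 UMIs the Smc4 share was 9.86% in erythroid-gated, 9.62% in myeloid-gated, 7.95% in lymphoid-gated (6.54% to 9.56%) and 10.5% in HSC-gated nuclei (9.44% to 11.7%), whereas HSC-gated nuclei of 2000 to 4000 UMIs had 17.1%.

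The departures of Cep55 and Anln were seen in the 2 deeper bins of original depth, and their intervals overlapped in the shallowest. In nuclei of over 8000 UMIs Cep55 had 1 of 3063 member UMIs in erythroid-gated nuclei (0.0326%) and 41 of 2936 in HSC-gated nuclei (1.40%). From 4000 to 8000 UMIs the shares were 0.25% and 1.55%. From 2000 to 4000 UMIs Cep55 had 0 of 339 member UMIs in erythroid-gated nuclei (up to 1.08%), against 1.07% (0.69% to 1.57%) in HSC-gated nuclei. Anln took 6.63% in erythroid-gated and 2.66% in HSC-gated nuclei over 8000 UMIs, and 5.31% and 2.78% from 4000 to 8000, but 3.24% from 11 UMIs (1.63% to 5.73%) and 2.68% (2.07% to 3.42%) in the shallowest bin. Ect2 in lymphoid-gated nuclei was 3.62%, 3.49% and 3.86% in the 3 bins from shallow to deep, against 1.96%, 2.38% and 2.45% in HSC-gated nuclei. Neil3 in erythroid-gated nuclei was 3.24%, 1.25% and 0.816%, against 2.43%, 3.72% and 3.54% in HSC-gated nuclei. Hmmr was 0.885%, 2.00% and 2.87%, against 1.32%, 1.29% and 1.94%. The Neil3 and Hmmr contrasts thus turned round in the shallowest bin, with overlapping intervals. Those of Aspm, Knl1, Kif23 and Depdc1b kept their direction there.

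**Figure D4:**
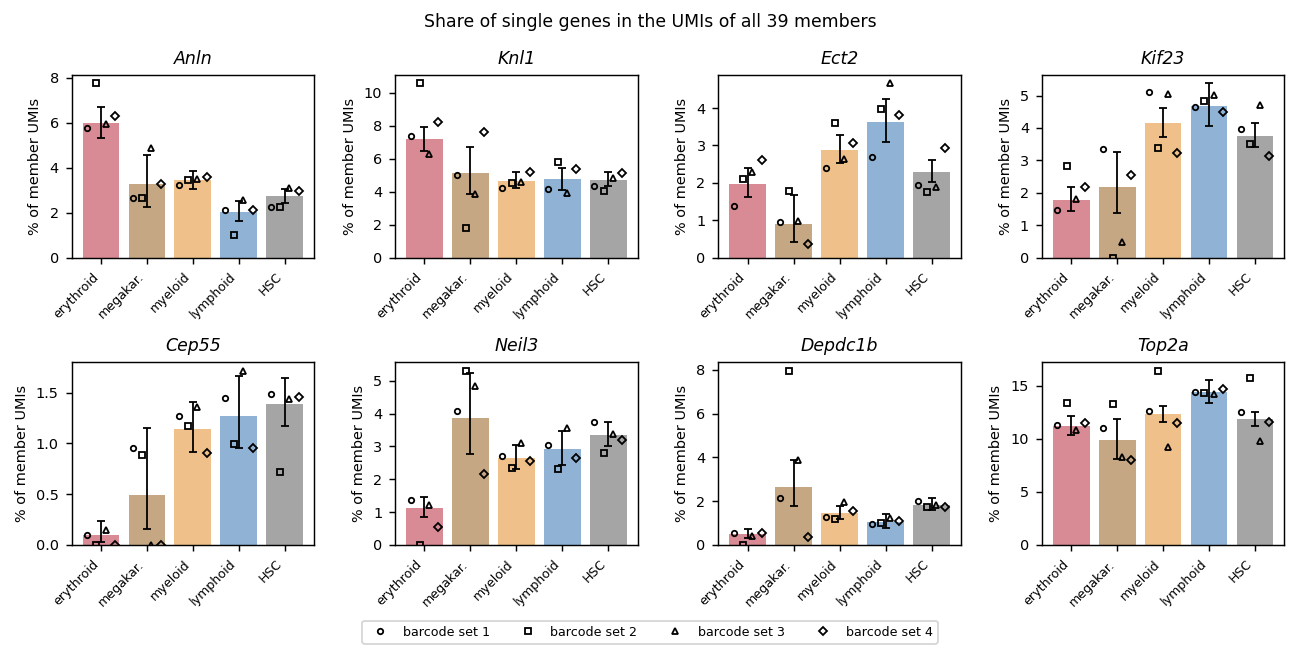
Share of 8 members in the UMIs of all 39 members (y axis, %) by class, with bars for the pooled share, whiskers for its 95% exact binomial interval and open symbols for the 4 barcode sets. Anln and Knl1 are highest and Cep55, Neil3 and Depdc1b lowest in erythroid-gated nuclei; Ect2 is lowest in megakaryocyte-gated nuclei at 0.889%.

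Levels were also read within mitosis-rich nuclei. Each member was read in nuclei with at least 8 of the other 38 members detected. Its level in these nuclei over that in the remaining nuclei of the class had a median over members of 1.72 in the erythroid-gated, 6.25 in the megakaryocyte-gated, 2.92 in the myeloid-gated, 7.25 in the lymphoid-gated and 7.32 in the HSC-gated class. These nuclei were selected on counts of the same module, which raises the ratio, and the selection takes different parts of each class's distribution, so the levels are given as values and no class difference is read from them. Top2a had 803 CPM in erythroid-gated, 1518 CPM in lymphoid-gated and 1167 CPM in HSC-gated mitosis-rich nuclei. Anln had 441 CPM in erythroid-gated and 273 CPM in HSC-gated mitosis-rich nuclei. Cep55 had 6.20 CPM (3 UMIs in 242 nuclei) in erythroid-gated and 152 CPM (96 UMIs in 315 nuclei) in HSC-gated mitosis-rich nuclei. Neil3 had 65.7 CPM in the erythroid-gated and 381 CPM in the HSC-gated ones.

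The members' co-variation was described over the 3567 nuclei of the 5 classes, as Pearson's r of log2(count + 1) centred within class and barcode set. These nuclei share libraries and depth, so r is a description without a test. Of 741 pairs, 734 had an r above 0, the median was 0.105 and 98 reached 0.2, values that are limited by how rarely most members are counted. Top2a was in the closest pairs, at 0.385 with Mki67, 0.383 with Kif11, 0.375 with Kif15, 0.342 with Neil3 and 0.313 with Kif20b. Other close pairs were Mki67 with Kif15 (0.334) and Kif11 (0.322), Kif15 with Neil3 (0.312) and Kif11 (0.312), and Kif11 with Kif23 (0.309). Kif15 and Neil3 were detected together in 304 nuclei, 2.06 times the number that independence within classes would give. The 10 lowest pairs had an r between -0.01 and 0.00 and each held at least 1 member with 116 or fewer UMIs, led by Plk1 with Plk4 and Ccnb1 with Plk4.

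Co-variation was not equal in the classes. The median r over pairs was 0.0369 in erythroid-gated, 0.136 in megakaryocyte-gated, 0.0682 in myeloid-gated, 0.154 in lymphoid-gated and 0.143 in HSC-gated nuclei. Pairs with an r of at least 0.2 numbered 2, 260, 22, 255 and 225 of 741 in the same order of classes, the 91 megakaryocyte-gated nuclei giving the widest scatter of r. The lymphoid- and HSC-gated classes had the largest medians and the erythroid-gated class the smallest. Detected members had a peak near 0 and a long tail in the first 2 classes, while most erythroid-gated nuclei had several. Whether this difference, class size or depth bears on r was not tested. By barcode set the medians were 0.115, 0.114, 0.0863 and 0.112.

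Set against the sum of the other 38 members, Top2a had the highest r at 0.572 (0.613, 0.588, 0.483 and 0.595 in sets 1 to 4), followed by Mki67 (0.490), Kif11 (0.480), Kif15 (0.476) and Knl1 (0.428). Ube2c (0.0595), Plk1 (0.0902), Ccnb1 (0.103), Cdc20 (0.115) and Aurka (0.126) had the lowest. This order followed abundance closely, with a rank correlation of 0.945 between a member's r and its UMIs, so a low r of a rare member does not show that it varies apart. Neil3 and Smc4 departed from the abundance order, since Neil3 reached 0.411 with 747 UMIs and Smc4 0.382 with 2999 UMIs.

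The sum of 49 S phase genes, which serve DNA replication, gave a second axis. Its r with the sum of the 39 members was 0.286. Top2a (0.233), Neil3 (0.197), Kif15 (0.190), Kif11 (0.141), Mki67 (0.138) and Smc4 (0.135) had the highest values, and Top2a had 0.201, 0.317, 0.189 and 0.264 in sets 1 to 4. Cenpe (-0.04), Cenpf (-0.04), Ccnb2 (-0.03), Ccnb1 (-0.02), Ube2c (-0.02) and Hmmr (-0.02) had the lowest, with Aspm at 0.00. Cenpe, Cenpf, Hmmr and Aspm had 510 to 1286 UMIs and an r of 0.306 to 0.356 with the other members, so well-counted members differed in how they followed the S phase genes. Abundance differs between these groups, and its part was not tested.

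**Figure D5:**
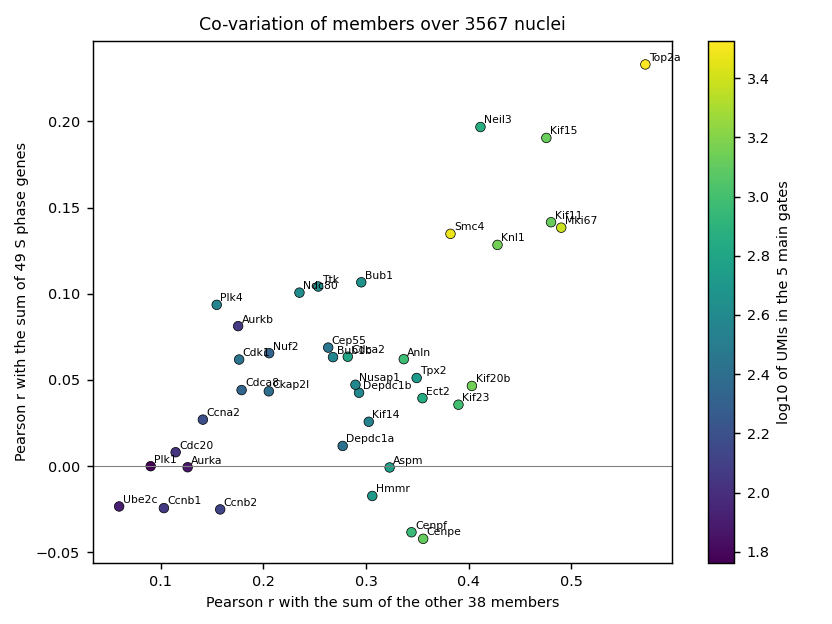
Each point is a member, placed by its Pearson r with the sum of the other 38 members (x axis) and with the sum of 49 S phase genes (y axis) over 3567 nuclei centred within class and barcode set; colour gives log10 of its UMIs. Top2a, Neil3 and Kif15 lie at the top, and Cenpe, Cenpf and Hmmr below 0 on the y axis.

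Among 5244 genes outside the module with at least 200 thinned UMIs, 38 (0.725%) had an r of at least 0.2 with the sum of the members. Of these, 23 belong to a list of 91 further mitosis genes and 3 to the S phase list, both chosen with earlier results of these data known. Among the closest were Cenpp (0.372), Diaph3 (0.371), Rad51b (0.360), Cit (0.358), Cep128 (0.349), Kif4 (0.333), Prc1 (0.333), Ckap5 (0.328) and Smc2 (0.305). The lowest were Ccnd3 (-0.20), Pim1 (-0.17), the mitochondrial gene mt-Co1 (-0.15) and Nfkbiz (-0.15).

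The 91 further mitosis genes and the S phase genes place the members in their pathway. Of the further mitosis genes, 27 of 76 measured were called higher and 1 lower in erythroid-gated nuclei, 19 of 68 higher and 2 lower in megakaryocyte-gated, 33 of 79 higher and 1 lower in myeloid-gated, and 15 of 75 higher in lymphoid-gated nuclei. Their median log2 ratios were 0.66, 0.56, 0.51 and 0.41 in these classes, below those of the 39 members. Members and lists were chosen with earlier results of these data known, so this difference is given as values only. Of the S phase genes, 5 of 45 were called higher and 1 lower in erythroid-gated, 3 of 43 higher and 1 lower in megakaryocyte-gated, 5 of 47 higher in myeloid-gated and 1 of 45 higher in lymphoid-gated nuclei, with medians of 0.36, 0.36, 0.33 and 0.22. The S phase shares called higher were thus between 2.22% and 11.1%, nearer to the background shares of all genes given above than those of the members were.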

How the data were processed

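RNA was measured in nuclei of sorted marrow cells with the 10x multiome assay. Per the submitters' processing notes, Cell Ranger ARC, Seurat and Signac were used with the mouse build mm10 (neither their versions nor the nucleus filters are given in the sources used here). Per gene and nucleus, the authors deposited unnormalized UMI counts; every value was tested to be whole. Columns with per-sample values left unused numbered 0. The chromatin samples were not analysed here.

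Counts were thinned without replacement to 2000 UMIs per nucleus with a fixed seed (11), which left out 1160 nuclei (13.3%). Analyses used Python 3.11.15, NumPy 2.4.6, SciPy 1.17.1 and pandas 2.3.3. No doublet caller was run; nuclei passing several gates were left out, and the deepest 5% of each barcode set were dropped in an alternative. Levels are sums of thinned counts as CPM; log2 ratios add 10 CPM and understate changes of low genes. Intervals are exact at 95% and cover counting error only. As no sample could be told apart within the table, the called genes are a description and not a test. The rule was run on simulated counts first, where it called more unchanged genes at the megakaryocyte number of nuclei than in the other classes. All members are accounted for; those described in full are regulators and abundant members listed by name, the 3 highest and 3 lowest ratios per class, the 5 widest and 5 narrowest ranges over classes, the closest and least close pairs, and the 10 closest genes outside the module, of which 1 is not reported here. The members, gate markers and gene lists were chosen with earlier results of these data known. Promoter sequences are from RefSeq (GRCm38.p6), with the first listed start where a gene had several.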

Additional observations from a re-analysis of the deposited data

How the results depend on the processing

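No paired analysis was possible because barcodes could not be tied to the numbered samples. Calls of single members were sensitive to thinning: another seed called 76 of the 156 ratios, 55 of them among the 86 first called, and 4000 UMIs per nucleus called 38, 29 of them shared. With 2 exceptions under the other seed, 1 at 4000 UMIs and 1 without the 5% deepest nuclei, called ratios kept their direction in all 14 alternatives. The number of members called higher moved by over 1.5 times at 4000 UMIs (erythroid-gated 9, myeloid-gated 4, lymphoid-gated 5), at a 2-fold limit (erythroid-gated 10, megakaryocyte-gated 15, myeloid-gated 4, lymphoid-gated 1), and in the megakaryocyte-gated class with another seed (13), a gate of 5 UMIs (13) or without the deepest nuclei (15). Of the nuclei gated at 2000 UMIs, 817 of the 1770 HSC-gated nuclei, the shared reference, had fewer than 4000 UMIs. So did 38 of 450 erythroid-gated, 32 of 91 megakaryocyte-gated, 151 of 793 myeloid-gated and 158 of 463 lymphoid-gated nuclei. The cause of these moves was not tested. The non-mitochondrial scaling moved the median of all genes by 0.21 in erythroid-gated nuclei and by under 0.1 elsewhere. It called 31 members higher in erythroid-gated nuclei, but also 16.5% of all measured genes, against 7.8% in the main setting. In megakaryocyte-, myeloid- and lymphoid-gated nuclei it called 19, 28 and 14 members higher, beside 7.49%, 6.24% and 4.38% of all measured genes.

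Shares of mitosis-rich nuclei (erythroid-, megakaryocyte-, myeloid-, lymphoid-, HSC-gated) became 87.3%, 76.8%, 71.3%, 53.6% and 44.9% at 4000 UMIs, 91.8%, 60.4%, 73.1%, 45.4% and 30.2% unthinned, 81.6%, 53.8%, 64.2%, 43.0% and 26.2% with a limit of 5 members, and 16.7%, 26.4%, 16.1%, 20.5% and 9.66% with a limit of 12. The HSC-gated class was lowest each time, but at 12 members the erythroid- and myeloid-gated classes fell below the other 2 progenitor classes. The non-mitochondrial scaling gave 76.5% (erythroid-gated), 55.0% (myeloid-gated) and 23.3% (HSC-gated). The HSC-gated share was 15.3% with a gate of 5 UMIs and 15.6% without the deepest nuclei. Leaving out set 3 gave 61.1% in erythroid-gated and 46.1% in myeloid-gated nuclei, and leaving out set 4 gave 37.3% in myeloid-gated nuclei. The median pair correlation was 0.158 at 4000 UMIs.

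Alternatives for shares of member UMIs, and their split by depth, were chosen after seeing the data. Of 110 such values, 106 stayed within the interval of the share. The others were Ect2 in megakaryocyte-gated nuclei (0.216% with a gate of 5 UMIs), Kif23 there (1.34% without set 1), and Neil3 (1.56%) and Depdc1b (0.811%) in erythroid-gated nuclei without the deepest nuclei. Megakaryocyte-gated values rest on 91 nuclei.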

Other observations

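Members were also detected in nuclei outside the 5 classes. The 34 nuclei gated as B cell on Ebf1, Pax5, Cd79a and related genes had a median of 8 members at 2000 UMIs, and 50% of them (32.4% to 67.6%) were mitosis-rich. The 101 nuclei gated as dendritic were 18.8% mitosis-rich (11.7% to 27.8%), and this interval overlaps that of the plasma-gated nuclei (8.76% to 17.1%). Of the 2954 nuclei that passed no gate, 31.5% (29.8% to 33.2%) were mitosis-rich, with 34.7%, 23.8%, 28.8% and 32.5% in barcode sets 1 to 4. Of the 578 nuclei that passed several gates, 31.1% were mitosis-rich, which is between the lymphoid- and HSC-gated shares of 33.7% and 18.2%.

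The 30 genes most correlated with the members include some outside the mitosis and S phase lists, and those named here were chosen after their values were seen. Rad51b (4331 thinned UMIs), Cep128 (3229), Polq (759), Efcab11 (315) and the non-coding gene Lockd (331) had values of r of 0.360, 0.349, 0.264, 0.258 and 0.236 with the sum of the members.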
